A study of Mus musculus with 12 samples.

Results

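The Igf2-H19 domain on mouse chromosome 7 and the Dlk1-Dio3 domain on chromosome 12 were described by their chromatin contacts in embryonic stem cells (ESC) and neuronal committed cells (NCC). All 6 contact tables were searched for interactions with an anchor in chr7:142550000-142800000 or chr12:109400000-110300000 (mm10) and a partner within 1 Mb. Hi-C held 6209 such interactions of 10237359 in ESC and 6653 of 10708066 in NCC, CTCF HiChIP 389 of 882215 and 396 of 841945, and FGFR1 HiChIP 806 of 1921126 and 995 of 2388222. The 9 member genes, of 31358 annotated genes, were Igf2, H19, Ins2, Dlk1, Meg3, Rtl1, Rian, Mirg and Dio3. They were chosen by position and imprinting and not by a measured value, but with earlier results of these data known. With 3 control regions, namely the enhancers downstream of H19, the imprinting control region (ICR) upstream of H19 and the IG-DMR upstream of Meg3, they made 12 landmarks.

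Hi-C counts pairs of DNA fragments that were ligated because they lay close together in the nucleus, and HiChIP does so after an antibody has pulled down the DNA bound by a protein. The antibodies were against CTCF, the zinc finger protein that marks many loop ends, and against FGFR1, a growth factor receptor with a nuclear form. The ESC were the line E14Tg2A, kept with 100 U/mL LIF. The NCC were the same cells after 48 h in 1 μM retinoic acid without LIF. Each combination of cell type and assay had 2 biological replicates, but the tables hold both merged, so each value below comes from 1 pooled library. No spread between replicates exists, no p-value is given, and each 95% interval covers counting error of the read pairs only and compares pooled libraries, not conditions. E14Tg2A is a line of strain 129, whereas the contacts were placed on the C57BL/6J reference, and the contacts of both parental chromosomes were summed. The tables hold no RNA, so marker genes of ESC and NCC could not be examined.

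Imprinted genes are expressed from only the maternal or only the paternal chromosome. At Igf2-H19, the maternal ICR is free of DNA methylation and binds CTCF, which keeps the enhancers beyond H19 from acting on Igf2, a fetal growth factor gene, while H19, a long noncoding RNA gene, is expressed. On the paternal chromosome the methylated ICR does not bind CTCF, and Igf2 is expressed. At Dlk1-Dio3, the protein-coding genes Dlk1, Rtl1 and Dio3 are expressed from the paternal chromosome and the noncoding RNA genes Meg3, Rian and Mirg from the maternal one, under the control of the IG-DMR, which is methylated on the paternal chromosome.

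The exact matches to a CTCF core in the ICR are shown because the CTCF HiChIP values of H19 rest on the anchor that holds 2 of them. CTCF sites that differ from this core were not searched for, so the matches need not be all sites of the ICR. The core CCGCGNGGNGGCAG occurred 3 times in the ICR (chr7:142580143-142582643, GRCm38), each on the minus strand, which is also the strand of H19. Of 56692 windows of the same length on chromosome 7, 8 (0.0141%) held the core at least once, as did 12 of 32851 RefSeq promoters (0.0365%) on either strand. The core searched for was that of the ICR itself, so its rarity elsewhere tests nothing. The windows that hold the ICR were not left out of the 8. The sites are printed on the minus strand with the core in capitals, at chr7:142580289-142580342, chr7:142580744-142580797 and chr7:142582014-142582067.
ICR site 1: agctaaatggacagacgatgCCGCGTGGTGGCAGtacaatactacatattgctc
ICR site 2: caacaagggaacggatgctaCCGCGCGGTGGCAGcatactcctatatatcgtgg
ICR site 3: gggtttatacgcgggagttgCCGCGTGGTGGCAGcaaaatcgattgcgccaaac
Sites 1 and 2 lay in the same anchor as the upstream part of H19 in the Hi-C and CTCF libraries and in NCC FGFR1 HiChIP. Site 3 lay in an anchor in ESC Hi-C only.

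The stretch of the IG-DMR with the densest copies of TGCCGC is shown because methylated TGCCGC is the motif bound by ZFP57, a zinc finger protein that keeps imprints in ESC. TGCCGC occurred 10 times on either strand in the IG-DMR window (chr12:109525001-109531001, GRCm38). Of 19479 windows of this length on chromosome 12, 26.7% held it at least once and 1 held it at least as often. The windows over the IG-DMR were not left out, so this 1 window may be the IG-DMR itself. The ICR held 5 copies, and 11.6% of RefSeq promoters, those of Igf2 and Meg3 among the members, held it. The stretch chr12:109528276-109528515 is printed on the plus strand with TGCCGC in capitals.
IG-DMR: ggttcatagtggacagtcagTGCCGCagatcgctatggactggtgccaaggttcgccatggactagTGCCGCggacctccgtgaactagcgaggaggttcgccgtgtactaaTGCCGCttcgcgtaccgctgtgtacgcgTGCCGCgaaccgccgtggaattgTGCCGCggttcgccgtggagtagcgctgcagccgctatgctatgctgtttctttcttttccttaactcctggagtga

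The general CTCF consensus did not occur in the chromosome 7 window of 250 kb and occurred 7 times in the chromosome 12 window of 900 kb. It was searched as an exact pattern, which the ICR sites printed above do not match. No match thus does not mean that CTCF sites are absent. Of RefSeq promoters, 0.557% held it. The promoters are far shorter than the windows, so this share cannot be set against the counts. Of stretches as long as the ICR on chromosome 7, 1.4% held the consensus. Of stretches as long as the IG-DMR on chromosome 12, 2.79% did. The 3 sites in Meg3 and Rian are shown because the anchors over them are among those described below, with the consensus in capitals. They lie at chr12:109551644-109551695 (minus strand), chr12:109566774-109566825 (plus) and chr12:109614708-109614759 (plus).
Meg3 site 1: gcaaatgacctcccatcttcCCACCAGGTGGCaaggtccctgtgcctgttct
Meg3 site 2: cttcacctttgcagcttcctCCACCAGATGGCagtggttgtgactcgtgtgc
Rian site: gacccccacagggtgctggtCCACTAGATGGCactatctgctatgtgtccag
Neither Meg3 site lay in an anchor of a CTCF library. The anchor over the Rian site was present in NCC CTCF HiChIP, with 9 ends, and in ESC CTCF HiChIP no anchor covered it. On the whole of chromosome 7, CTCF HiChIP anchors held 13.3 consensus sites per Mb of anchor in ESC and 13.9 in NCC, against 10.2 and 9.39 in Hi-C, and on chromosome 12 the values were 8.03 and 9.20 against 7.05 and 7.42.

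The depth differed widely between the assays. Hi-C held 20745652 read pairs in ESC and 21228099 in NCC, CTCF HiChIP 1218098 and 1056437, and FGFR1 HiChIP 2662606 and 3203872, of which 48.0% to 54.8% joined different anchors within 1 Mb. An anchor is a stretch of restriction fragments on which the authors' software gathered the reads, and its borders differ between libraries. In the 2 windows, anchors covered 52.6% to 57.7% of the bases in Hi-C but only 20.7% to 27.7% in CTCF HiChIP and 23.4% to 33.9% in FGFR1 HiChIP. In NCC the Igf2-H19 window had more read pairs per 1000000 of its library than in ESC in each assay, with 161 and 202 in Hi-C, 137 and 198 in CTCF HiChIP and 109 and 141 in FGFR1 HiChIP. The Dlk1-Dio3 window differed less, with 482 and 542, 245 and 259, and 261 and 282.

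For the interaction anchor strength of a landmark, the ends of read pairs were summed over all anchors that overlap it, and the landmark of a gene was its body with 2 kb upstream. A difference was called at 1.5-fold or more per 1000000 read pairs, in landmarks or genes with at least 20 ends in both libraries together. Whole anchors were counted, so that landmarks were compared with each other only per kb of anchor. Per kb of anchor per 1000000 read pairs, Dlk1 had the highest Hi-C strength of the 9 genes in both cell types, with 3.12 (2.90 to 3.36) in ESC and 2.80 (2.59 to 3.03) in NCC. Rian, Rtl1, Ins2 and Meg3 had the lowest values in ESC, from 1.07 to 1.26, with overlapping intervals between neighbours in this order. In NCC, Meg3 was lowest with 1.24 (1.15 to 1.34), next to Rian with 1.33 (1.25 to 1.42). The IG-DMR was at 2.01 (1.75 to 2.29) in ESC, below Dlk1, and at 2.93 (2.58 to 3.31) in NCC, where its interval overlapped that of Dlk1. Its anchor was 5.3 kb long in ESC and 4.2 kb in NCC.

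**Figure D1:**
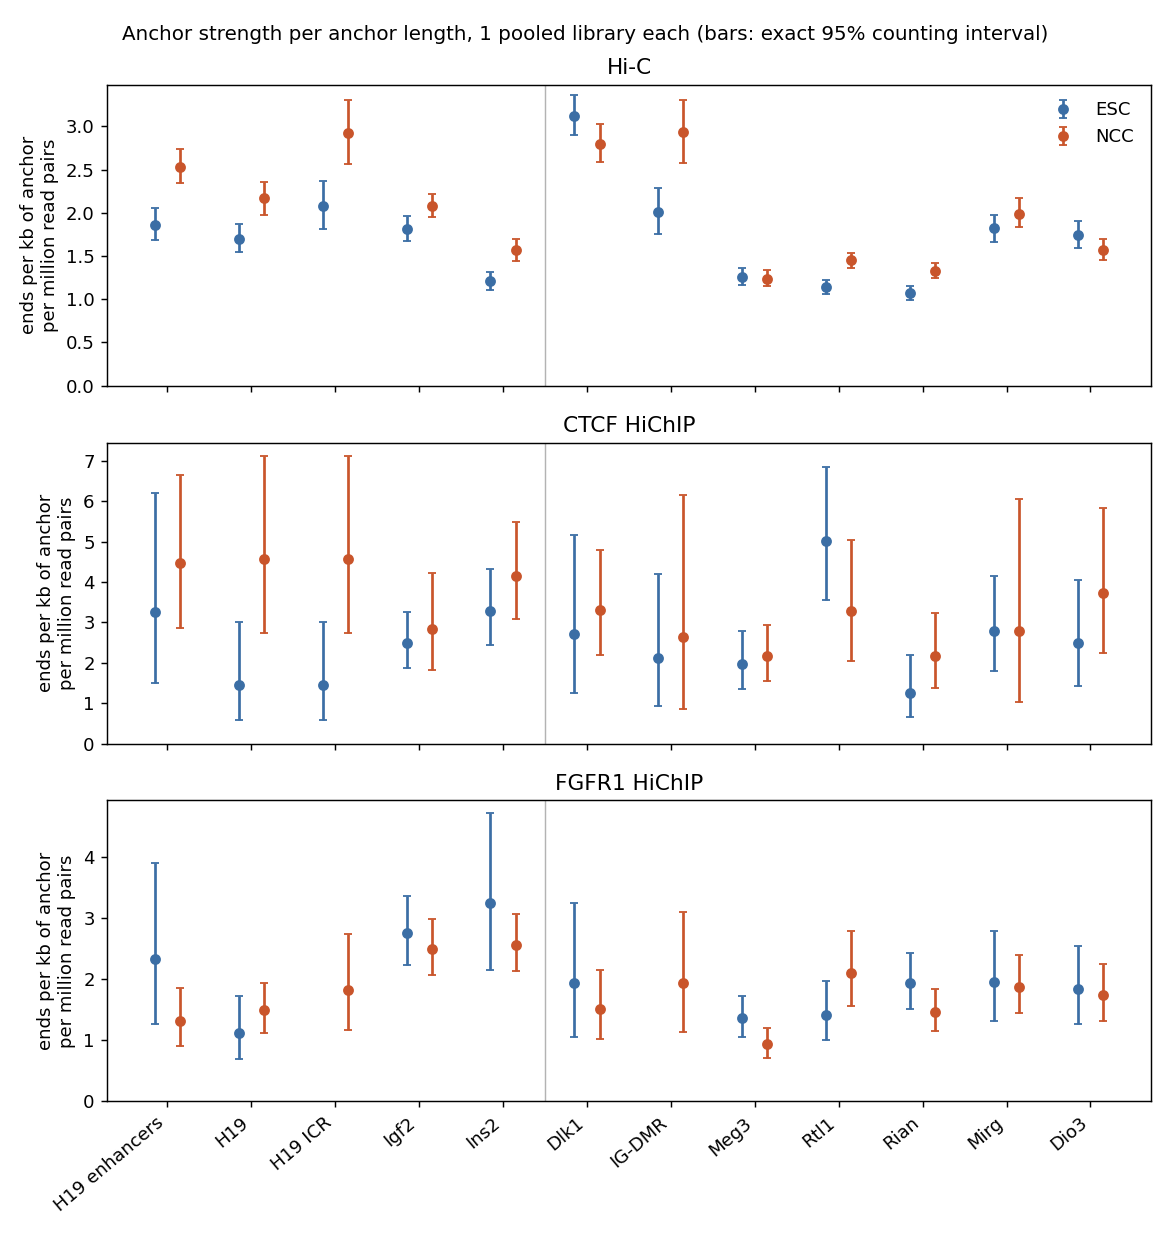
Anchor strength of the 12 landmarks in Hi-C, CTCF HiChIP and FGFR1 HiChIP, as read-pair ends per kb of anchor per 1000000 read pairs, for ESC (blue) and NCC (orange); each point is 1 pooled library and each bar its exact 95% counting interval, and landmarks with no anchor have no point. Dlk1 is highest of the genes in Hi-C (3.12 in ESC and 2.80 in NCC), and the H19 and ICR anchor in CTCF HiChIP is at 1.46 in ESC and 4.57 in NCC.

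In Hi-C, the strength of the members differed little between NCC and ESC. Igf2 alone was called, at 593 ends in ESC and 979 in NCC, a ratio of 1.61 (1.46 to 1.79). So 1 of the 12 landmarks was called higher and 0 lower, where 13.1% of all genes tested were called higher and 16.8% lower. The call of Igf2 depends on which anchors are taken as Igf2. Its anchors measured 15.8 kb in ESC and 22.2 kb in NCC, the strength per kb of anchor was 1.81 (1.67 to 1.96) and 2.08 (1.95 to 2.22), and with only anchors whose midpoint lies in the gene the ratio was 0.905.

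The enhancers beyond H19 came next, with 404 ends in ESC and 603 in NCC, a ratio of 1.46 (1.28 to 1.66). H19 had 449 and 531 ends (1.16, 1.02 to 1.31), the ICR 219 and 244 (1.09, 0.904 to 1.31) and Ins2, an insulin gene, 561 and 604 (1.05, 0.936 to 1.18). H19 shared 1 anchor with the ICR and 1 with the enhancers, so these 3 values are not independent. With the RefSeq gene in place of the much longer GENCODE gene, Ins2 had 203 ends in ESC and 94 in NCC, a ratio of 0.453 (0.351 to 0.581), and no end in either HiChIP assay. GENCODE's Ins2 (chr7:142678656-142743381) runs far beyond the RefSeq gene (chr7:142678656-142679726), so most of the ends counted for Ins2 lie outside the insulin gene itself.

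Among the paternally expressed genes of the Dlk1-Dio3 domain, Dlk1, an inhibitor of Notch signalling, had 742 Hi-C ends in ESC and 642 in NCC, a ratio of 0.846 (0.760 to 0.941). It was the only landmark below 1 in the main setting, and it stayed below 1 in 9 of 9 settings, from 0.732 to 0.952. Rtl1, a gene derived from a retrotransposon, had 711 and 1027 ends (1.41, 1.28 to 1.56), and Dio3, which encodes an enzyme that inactivates thyroid hormone, 488 and 630 (1.26, 1.12 to 1.42). A single anchor covered Dio3 in each Hi-C library, 13.5 kb long in ESC and 18.9 kb in NCC, and per kb of anchor Dio3 was at 1.74 (1.59 to 1.90) and 1.57 (1.45 to 1.70).

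Of the maternally expressed RNA genes, Rian, the host of many small nucleolar RNAs, had 697 and 963 ends (1.35, 1.22 to 1.49). Rian and Rtl1 shared 1 anchor in each Hi-C library. Meg3 had 675 and 709 ends (1.03, 0.923 to 1.14) and Mirg, a host of microRNAs, 520 and 534 (1.00, 0.888 to 1.13). The IG-DMR had 221 and 261 (1.15, 0.961 to 1.39). None of these 4 landmarks reached 1.5-fold.

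In CTCF HiChIP, H19 and its ICR, the enhancers, Dlk1, Meg3 and Rian were higher in NCC and Igf2, Rtl1 and Mirg lower. Of the 11 landmarks with at least 20 ends, 6 were called higher and 3 lower, where 27.5% of all genes tested were called higher and 25.9% lower. H19 and the ICR count here as the same anchor. That anchor, 3.9 kb long in both libraries, held 7 ends in ESC and 19 in NCC, a ratio of 3.13 (1.26 to 8.81), and the ratio of H19 was above 1 in 9 of 9 settings, from 2.31 to 4.78. Because its length did not differ, the strength per kb of anchor differed as much, with 1.46 (0.587 to 3.01) and 4.57 (2.75 to 7.13).

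The enhancers had 9 CTCF ends in ESC and 24 in NCC, a ratio of 3.07 (1.38 to 7.52), but the ESC value came from an anchor that reached over 0.2% of the landmark. Igf2 had 53 ends in ESC and 24 in NCC, a ratio of 0.522 (0.308 to 0.861). Here the anchors differed, with 17.5 kb in ESC and 8.0 kb in NCC, and per kb of anchor Igf2 was at 2.49 (1.87 to 3.26) and 2.84 (1.82 to 4.22), with overlapping intervals. The ratio of Igf2 was 1.24 within 5 kb of its start and 1.27 with the landmark widened by 10 kb. Ins2 had 51 and 49 ends (1.11, 0.733 to 1.67).

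Dlk1 had 9 CTCF ends in ESC and 28 in NCC, the highest ratio of the landmarks at 3.59 (1.65 to 8.64), and it was above 1 in each of the 8 settings that gave a value, from 1.41 to 5.05. Its anchors covered 7.3% of the gene in ESC and 35.7% in NCC, and per kb of anchor the values were 2.72 (1.24 to 5.16) and 3.31 (2.20 to 4.79). Mirg had 24 and 6 ends, the lowest ratio at 0.288 (0.0964 to 0.724), and was below 1 in the 7 settings that gave a value. Its anchors measured 7.1 kb in ESC and 2.0 kb in NCC, with 2.79 and 2.78 ends per kb of anchor. For both genes the difference in ends thus moved with the length of the anchors, and the part of the anchor calling in it was not tested.

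Rian had 12 and 23 CTCF ends (2.21, 1.06 to 4.87), Meg3 31 and 41 (1.52, 0.933 to 2.52) and Rtl1 39 and 21 (0.621, 0.347 to 1.08). These 3 calls rest on few reads, and each turned in another setting, Rian to 0.983 with read pairs inside an anchor counted, Meg3 to 0.988 at a score of at least 2 and Rtl1 to 1.09 within 5 kb of its start. Dio3 had 16 and 19 ends (1.37, 0.667 to 2.85). The IG-DMR had 8 and 5, too few for a call.

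**Figure D2:**
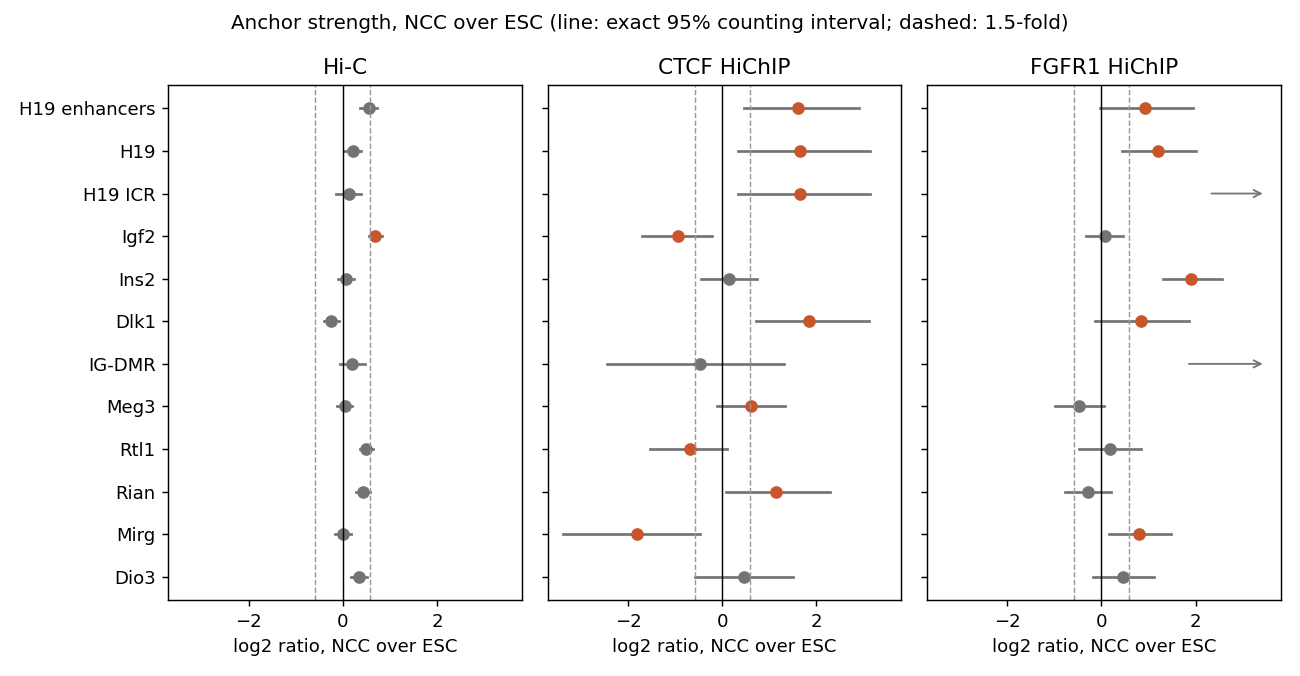
Ratio of interaction anchor strength per 1000000 read pairs, NCC over ESC, on a log2 axis for the 12 landmarks in the 3 assays; lines are exact 95% counting intervals, orange points are called at 1.5-fold (dashed lines) with at least 20 ends, and grey arrows start at the lower limit of the interval where ESC had 0 ends (the ICR, which is called, and the IG-DMR, which is not). In Hi-C only Igf2 (ratio 1.61) passes 1.5-fold, whereas in CTCF HiChIP Dlk1 (3.59) and Mirg (0.288) lie at opposite sides.

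In FGFR1 HiChIP, 6 of the 11 landmarks with at least 20 ends were called higher in NCC and 0 lower, where 21.2% of all genes tested were called higher and 30.9% lower. In NCC the 2 anchors of H19 were also the only anchor of the enhancers and the only anchor of the ICR. The calls of H19, the ICR and the enhancers thus count the same NCC ends and are not independent. H19 had 20 ends in ESC and 55 in NCC, a ratio of 2.29 (1.35 to 4.03). The ICR had no anchor in ESC and 23 ends in NCC, at least 6.37-fold higher when the ESC value is set to the limit of 3 ends that a count of 0 allows. This bound leaves out the counting error of the 23 ends, and with the landmark widened by 10 kb the ratio was 2.44 (1.62 to 3.77). Ins2 had 27 and 122 ends (3.76, 2.46 to 5.93), with anchors over 4.7% of the gene in ESC and 22.3% in NCC.

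The enhancers had 14 and 32 FGFR1 ends (1.90, 0.985 to 3.85), with an anchor over 0.2% of the landmark in ESC and 55.3% in NCC. The ratio was called also for Dlk1, with 14 and 30 ends (1.78, 0.916 to 3.63), and for Mirg, with 30 and 63 (1.75, 1.11 to 2.79). The Dlk1 ratio was 0.966 with the landmark widened by 10 kb and the Mirg ratio 0.919 within 5 kb of its start. The IG-DMR had 0 and 17 ends, at least 4.71-fold higher in NCC by the same limit but under the 20 ends that a call needs, and with the landmark widened by 10 kb its ratio was 0.831. Igf2 had 96 and 121 ends (1.05, 0.795 to 1.38), Meg3 69 and 60 (0.723, 0.503 to 1.04), Rtl1 36 and 49 (1.13, 0.721 to 1.79), Rian 74 and 73 (0.820, 0.585 to 1.15) and Dio3 35 and 58 (1.38, 0.890 to 2.16). Per kb of anchor, the intervals of ESC and NCC overlapped for each landmark that had an anchor in both. Of the called landmarks, H19 was higher in NCC on this scale, at 1.12 (0.684 to 1.73) and 1.49 (1.12 to 1.93). The enhancers (2.32 and 1.31), Ins2 (3.24 and 2.56), Dlk1 (1.93 and 1.51) and Mirg (1.95 and 1.87) were lower in NCC on this scale, against the direction of their end counts.

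The question whether the CTCF antibody enriched the members was addressed by setting CTCF HiChIP against Hi-C of the same cells. In ESC, Igf2 and Ins2 were higher in CTCF HiChIP, with ratios of 1.52 (1.13 to 2.02) and 1.55 (1.14 to 2.06), and 7 landmarks were lower. The value of Ins2 comes from the long GENCODE gene, since the RefSeq gene had 0 CTCF ends against 203 Hi-C ends in ESC (upper limit of the ratio 0.312) and 0 against 94 in NCC (0.804). Over all genes tested, 14.4% were called higher and 46.3% lower, with a median log2 ratio of -0.48. The lowest was Dlk1 at 0.207 (0.0941 to 0.394), followed by H19 at 0.266 (0.106 to 0.552), Rian at 0.293 (0.151 to 0.515), the enhancers at 0.379 (0.172 to 0.727) and the ICR at 0.544 (0.216 to 1.14). When scores of 1 were left out, Igf2 was at 0.430 and Ins2 at 0.806, in a setting that also moved the median log2 ratio of all genes to -2.09.

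In NCC, the ICR and Ins2 were called higher in CTCF HiChIP, at 1.56 (0.926 to 2.50) and, for the GENCODE gene only, 1.63 (1.19 to 2.18), and 6 landmarks lower, where 18.8% of all genes were called higher and 46.0% lower. Mirg was lowest at 0.226 (0.0825 to 0.495). Igf2 was at 0.493 (0.314 to 0.737), Rtl1 at 0.411 (0.253 to 0.631) and Rian at 0.480 (0.303 to 0.724). The IG-DMR, with 5 CTCF ends against 261 Hi-C ends, and Dio3, with 19 against 630, were also called lower. The IG-DMR was called in 9 of 9 settings, from 0.188 to 0.541. The ICR ratio was 0.777 at a score of at least 2, where the median log2 ratio of all genes was -2.15, and 0.452 with the landmark widened by 10 kb.

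The change from ESC to NCC in CTCF HiChIP relative to that in Hi-C was 2.71 (1.08 to 7.69) for H19, 2.87 (1.13 to 8.24) for the ICR and 4.24 (1.93 to 10.3) for Dlk1. It was 0.324 (0.189 to 0.540) for Igf2, 0.440 (0.244 to 0.774) for Rtl1 and 0.288 (0.0953 to 0.730) for Mirg. For the other 6 landmarks the interval included 1. H19 and the ICR are the same CTCF anchor. These values compare ends and not ends per kb of anchor, and for Dlk1, Igf2 and Mirg the CTCF ends moved with the length of the anchors.

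FGFR1 HiChIP lay below Hi-C at most landmarks. In ESC, 0 were called higher and 9 lower, against 16.6% and 41.0% of all genes, and in NCC 0 and 8, against 18.4% and 46.4%. Dlk1 was at 0.147 (0.0800 to 0.248) in ESC and 0.310 (0.207 to 0.446) in NCC. Igf2 was at 1.26 (1.01 to 1.57) and 0.819 (0.672 to 0.990), and Ins2 at 0.375 (0.245 to 0.552) and 1.34 (1.09 to 1.63). In ESC the ICR and the IG-DMR had no FGFR1 end, and Hi-C was at least 9.37-fold and 9.45-fold higher there by the same limit. With the landmarks widened by 10 kb, FGFR1 HiChIP was at 0.365 (0.248 to 0.520) of Hi-C for the ICR and 0.557 (0.393 to 0.768) for the IG-DMR.

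Contacts between 2 landmarks, with distances given between their midpoints, were counted as read pairs that join an anchor of each, and set against the mean number for 2 anchors at the same distance across the genome. Per pair of anchors, the contacts of Igf2 with the H19 side of the domain were several times the mean at equal distance. The expected number takes no account of anchor length. In ESC Hi-C, the 2 anchors at H19 measured 12.7 kb together and the 2 at Igf2 15.8 kb, against a median anchor of 2886 bp. How much of the excess comes with this length was not tested. H19 and Igf2, 82.0 kb apart, were joined by 22 Hi-C read pairs in ESC and 30 in NCC, 5.86 (3.67 to 8.88) and 5.22 (3.52 to 7.46) times the expected number. The enhancers and Igf2, 90.6 kb apart, were joined by 16 read pairs in ESC and 41 in NCC, or 4.70 (2.69 to 7.63) and 7.61 (5.46 to 10.3) times the expected number. This contact was 2.50 (1.38 to 4.78) times as frequent per 1000000 read pairs in NCC. Igf2 spanned 2 Hi-C anchors in ESC and 3 in NCC, of 15.8 and 22.2 kb in all, and the expected number was 3.4 and 5.39. The intervals relative to the expected number overlapped between the cell types.

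The ICR contacted Igf2 with 14 and 10 read pairs (0.698, 0.277 to 1.69), which were 7.10 (3.88 to 11.9) and 3.48 (1.67 to 6.40) times the expected number. The contact of H19 with Ins2 went the other way from that of the enhancers with Igf2, with 19 read pairs in ESC and 8 in NCC, a ratio of 0.411 (0.156 to 0.984). Ins2 is here the long GENCODE gene, whose Hi-C anchors measured 22.3 kb in ESC and 18.2 kb in NCC. In the fixed bins described below, the corresponding ratio had an interval that included 1. The ICR and Ins2 were joined by 13 and 5 read pairs (0.376, 0.105 to 1.12), and the enhancers and Ins2 by 9 and 7 (0.760, 0.241 to 2.29). The enhancers contacted H19 with 4 and 16 read pairs (3.91, 1.26 to 16.1) and the ICR with 31 and 40 (1.26, 0.769 to 2.08). Igf2 and Ins2, whose midpoints are 52.2 kb apart, had 18 and 31 (1.68, 0.913 to 3.20), which was 0.769 and 0.837 times the expected number.

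Because anchors differ between libraries, the contacts were also counted between fixed 25 kb bins set from the start of H19, by the midpoint of each anchor. The zones below were chosen after the values were seen. The 100 kb that run from Tnnt3 to H19, and that hold the enhancers and the genes Mrpl23 and Nctc1, were joined to the 50 kb with Igf2 and its flank by 290 Hi-C read pairs in ESC and 501 in NCC, a ratio of 1.69 (1.46 to 1.96). CTCF HiChIP had 16 and 31 read pairs (2.23, 1.19 to 4.37) and FGFR1 HiChIP 24 and 62 (2.15, 1.32 to 3.60). The contacts of the same 100 kb with the 100 kb of Ins2 and beyond numbered 85 and 74 in Hi-C, a ratio of 0.851 (0.614 to 1.18). Those of the 50 kb with the H19 start and the ICR with this Ins2 zone numbered 47 and 42 (0.873, 0.562 to 1.35). Read pairs within the Ins2 zone numbered 84 and 85 (0.989, 0.723 to 1.35). Other zones up to H19 also had more Hi-C read pairs in NCC, so the gain was not particular to Igf2. Within the same 100 kb they numbered 673 and 975 (1.42, 1.28 to 1.56). Between these 100 kb and the zone of Syt8 and Tnni2 they numbered 363 and 567 (1.53, 1.34 to 1.75). The Igf2 zone and that of Syt8 and Tnni2 had 147 and 207 (1.38, 1.11 to 1.71). Zone ratios elsewhere in the genome were not computed.

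The 100 kb from Tnnt3 to H19 also had more contacts in NCC with the 50 kb that hold the H19 start and the ICR, with 313 and 466 Hi-C read pairs (1.45, 1.26 to 1.68), 8 and 26 CTCF read pairs (3.75, 1.65 to 9.58) and 13 and 35 FGFR1 read pairs (2.24, 1.15 to 4.61). Igf2 itself faced H19 rather than Ins2. Of its Hi-C contacts over 20 kb, 16.8% (13.4 to 20.7) in ESC and 11.9% (9.7 to 14.5) in NCC led to higher coordinates, away from H19, and for the other 11 landmarks this share lay between 31.5% and 66.7%. Between the fixed bin from 75 to 100 kb, which holds most of Igf2, and the bin from 50 to 25 kb on the other side of the H19 start, Hi-C had 57 read pairs in ESC and 116 in NCC.

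**Figure D3:**
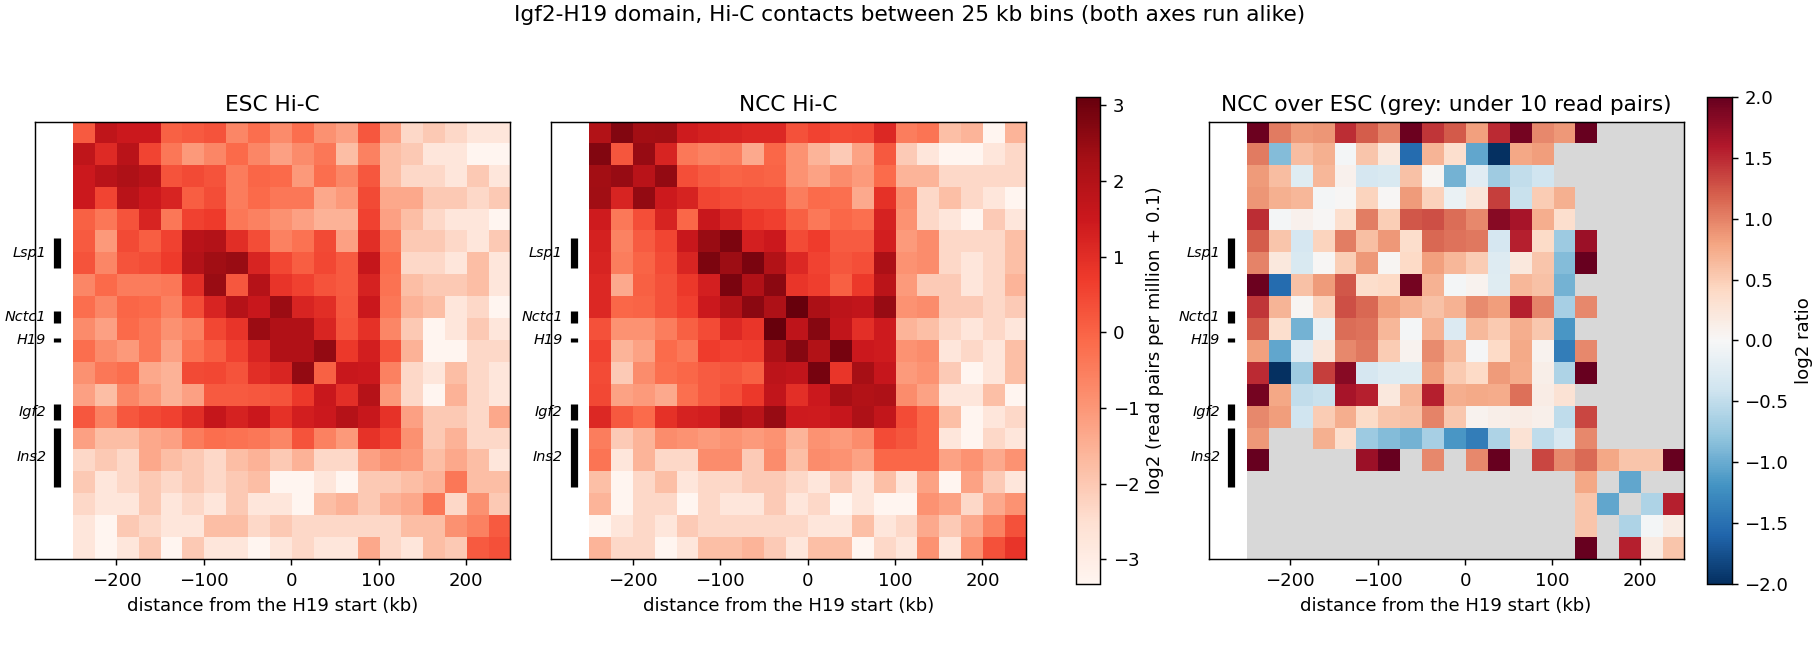
Hi-C read pairs per 1000000 between 25 kb bins around the H19 start in ESC and NCC (log2 with 0.1 added) and their NCC over ESC ratio (log2, cut at 2 either way, bins under 10 read pairs grey); both axes run alike in distance from the H19 start and black bars mark genes. The block between Lsp1 and Igf2 is denser in NCC (290 and 501 read pairs between the 100 kb up to H19 and the Igf2 zone), and contacts drop beyond Igf2 in both cell types.

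CTCF HiChIP held few read pairs between landmarks. Summed over all landmark pairs of the Igf2-H19 domain it had 2 in ESC and 11 in NCC, against 146 and 188 in Hi-C, where a read pair of an anchor that landmarks share counts for each of them. CTCF HiChIP was at 0.233 (0.028 to 0.858) of Hi-C per 1000000 read pairs in ESC, a log2 ratio of -2.10, and at 1.18 (0.577 to 2.15) in NCC, a log2 ratio of 0.23. The NCC over ESC ratio was 1.26 (1.01 to 1.57) in Hi-C, a log2 ratio of 0.33, 6.34 (1.38 to 58.9) in CTCF HiChIP and, with 3 and 15 read pairs, 4.16 (1.18 to 22.4) in FGFR1 HiChIP. With each read pair counted once, the domain had 2 and 6 in CTCF HiChIP (3.46, 0.619 to 35.0), 3 and 12 in FGFR1 HiChIP (3.32, 0.897 to 18.4) and 101 and 134 in Hi-C (1.30, 0.994 to 1.70), and each interval included 1. CTCF HiChIP was then at 0.337 (0.0403 to 1.25) of Hi-C in ESC and 0.900 (0.324 to 2.01) in NCC. By anchor midpoint the Hi-C ratio turned, with 45 and 27 read pairs (0.586, 0.350 to 0.966), and the ratio was 1.15 (0.0836 to 15.9) in CTCF HiChIP and 1.39 (0.269 to 8.92) in FGFR1 HiChIP. At 20 kb or more the CTCF ratio was 1.73 (0.198 to 20.7).

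The interactions over 20 kb with the highest CTCF score were looked up in the other libraries. In ESC the top one joined Lsp1 to the anchor at Igf2 (chr7:142479789-142483441 and chr7:142663935-142673028) with a score of 3 at 186.9 kb, and the read pairs over both sites numbered 16 in ESC Hi-C and 41 in NCC Hi-C. In NCC a score of 4 joined Mrpl23 to an anchor beside Igf2 (chr7:142536415-142541074 and chr7:142669726-142673952), at 133.1 kb, with 4 and 13 Hi-C read pairs. Another score of 4 joined Nctc1 to the anchor of H19 and the ICR, whose first 2 core sites are printed above, at 31.4 kb, with 7 and 19 Hi-C read pairs and 0 in ESC CTCF HiChIP. Lsp1 and the same anchor beside Igf2 had a CTCF score of 3 at 189.8 kb, and 5 and 32 Hi-C read pairs. Each of these 4 interactions had more Hi-C read pairs in NCC. The 2 that start at Lsp1 overlap at both ends, so their counts are not independent and they may be the same contact. The other 6 of the top 5 lists were ties at a score of 2, which 9 interactions shared in ESC and 14 in NCC, and had at most 7 Hi-C read pairs in either library. Of these, 1 at Igf2 had 3 Hi-C read pairs in ESC and 1 in NCC, 1 at Lsp1 had 7 and 5, and 1 at the anchor beside Igf2 had 2 and 0.

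In the Dlk1-Dio3 domain, the interval of the ratio between the cell types included 1 for each contact of a gene with the IG-DMR. Dlk1 and the IG-DMR, 70.9 kb apart, were joined by 16 Hi-C read pairs in ESC and 21 in NCC (1.28, 0.638 to 2.63), 4.61 and 6.46 times the expected number. The IG-DMR and Meg3 had 30 in each (0.977, 0.569 to 1.68), 2.94 and 4.38 times the expected number. Dlk1 and Meg3 had 31 and 33 (1.04, 0.618 to 1.76). The IG-DMR had 5 and 11 read pairs with Rtl1 (2.15, 0.689 to 7.89), and 1 and 2 with Mirg.

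Meg3 and Rtl1, 40.4 kb apart, made the contact of this domain that differed most in read pairs, with 42 in ESC and 83 in NCC, a ratio of 1.93 (1.32 to 2.87). Relative to the expected number, which rises with the number of anchors, it was 2.01 in ESC and 2.46 in NCC. Rtl1 spanned 3 Hi-C anchors in ESC and 5 in NCC. Meg3 and Rtl1 had 4 and 2 read pairs in CTCF HiChIP and in FGFR1 HiChIP 7 and 0. Dlk1 and Dio3, at the ends of the domain and 822 kb apart, were joined by 4 Hi-C read pairs in each cell type, where 0.152 were expected in each, since the mean at this distance is low. The single Dio3 anchor was also long, at 13.5 kb in ESC and 18.9 kb in NCC, which the expected number leaves out.

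Over all landmark pairs of the domain, Hi-C had 330 read pairs in ESC and 396 in NCC, a ratio of 1.17 (1.01 to 1.36) and a log2 ratio of 0.23, and with each read pair counted once 252 and 327 (1.27, 1.07 to 1.5). CTCF HiChIP had 17 and 18, which per 1000000 read pairs was 0.877 (0.505 to 1.43) of Hi-C in ESC, a log2 ratio of -0.19, and 0.913 (0.536 to 1.46) in NCC, a log2 ratio of -0.13. Counted once, these ratios were 1.15 (0.659 to 1.88) and 1.11 (0.647 to 1.78). The most for any landmark pair was 5 in NCC, for Dlk1 with Meg3 and for Rtl1 with Rian. In fixed bins set from the Meg3 start, the 50 kb around Dlk1 had 251 read pairs among themselves in ESC and 200 in NCC (0.779, 0.643 to 0.941), and 119 and 91 with the zone of Rtl1, Rian and Mirg (0.747, 0.562 to 0.990). The bin of the IG-DMR had 62 and 89 read pairs with the Dlk1 zone (1.40, 1.00 to 1.97) and 21 and 40 with the zone of Rtl1, Rian and Mirg (1.86, 1.07 to 3.32). Read pairs within the Meg3 zone numbered 143 and 150 (1.03, 0.810 to 1.30).

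The 5 highest CTCF scores over 20 kb in this domain were all 3 in ESC, among 8 ties, and all 2 in NCC, among 18 ties. In ESC they included 1 at Dlk1, 36.6 kb from an upstream anchor, with 13 and 5 Hi-C read pairs, 1 between Meg3 and Rtl1 at 25.5 kb with 15 and 5, and 1 at Dio3 at 88.9 kb with 25 and 15. These 3 had fewer Hi-C read pairs in NCC, whereas the other 2, which touched no landmark, had more, with 9 and 12 and with 12 and 20. In NCC a score of 2 joined the anchor at the Rian consensus site to one upstream of the IG-DMR, 103.8 kb away, with 7 and 10 Hi-C read pairs, and another joined the anchor over Dio3 to one 91.5 kb beyond Dio3, with 11 and 19.

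**Figure D4:**
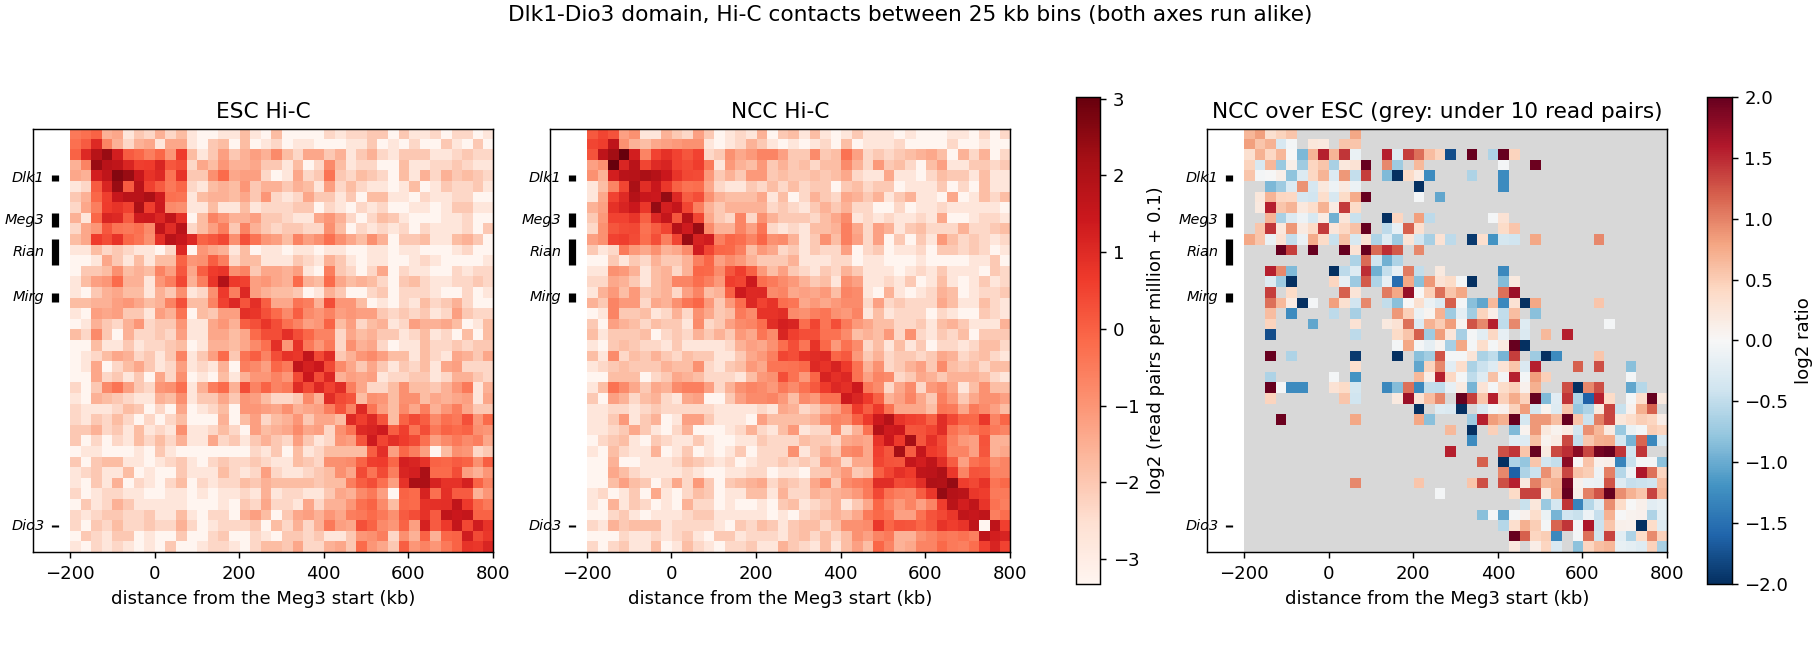
Hi-C read pairs per 1000000 between 25 kb bins around the Meg3 start in ESC and NCC (log2 with 0.1 added) and their NCC over ESC ratio (log2, cut at 2 either way, bins under 10 read pairs grey); both axes run alike in distance from the Meg3 start and black bars mark genes. Dlk1, Meg3 and the start of Rian lie in a denser block in both cell types, and the white bin at Dio3 in NCC holds a single anchor, so that no read pair between different anchors was possible in it.

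The read pairs that span a landmark, with ends up to 250 kb to either side, were set against the mean of all such positions on its chromosome. H19 was spanned by 1143 Hi-C read pairs in ESC and 1697 in NCC, which is 3.10 (2.92 to 3.28) and 4.64 (4.43 to 4.87) times that mean, at the percentiles 95.2 and 99.2 of positions of the genome. The ICR was at 3.05 and 4.53 and the enhancers at 3.19 and 4.82. Igf2 was at 1.64 (1.51 to 1.78) and 2.13 (1.98 to 2.29), and Ins2 at 0.653 (0.573 to 0.741) and 0.684 (0.602 to 0.774). With ends up to 500 kb to either side, Ins2 lay above the mean, at 1.12 (1.04 to 1.21) in ESC and 1.10 (1.02 to 1.19) in NCC. The position taken for Ins2 is the midpoint of its GENCODE landmark, which lies outside the RefSeq gene. The ratio of NCC to ESC per 1000000 read pairs was 1.45 (1.35 to 1.57) at H19 and 1.01 (0.846 to 1.22) at Ins2, where the median of 88143 positions was 0.954 and the value of H19 lay at the percentile 88.2.

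In the Dlk1-Dio3 domain the Hi-C values ran from 1.74 at Rian to 3.05 at Dio3 in ESC and from 1.83 at Mirg to 3.22 at Dio3 in NCC, and the ratios of NCC to ESC from 0.992 at Mirg to 1.14 at the IG-DMR. CTCF HiChIP gave the same order of H19 over Igf2 over Ins2, with 3.25, 2.07 and 0.839 in ESC and 5.35, 2.71 and 1.02 in NCC. In that assay H19 was spanned by 58 and 79 read pairs (1.57, 1.10 to 2.24), Dlk1 by 13 and 23 (2.04, 0.991 to 4.38) and Mirg by 25 and 11 (0.507, 0.225 to 1.07). At Mirg the intervals of the levels in ESC, 1.09 to 2.48, and in NCC, 0.380 to 1.36, overlapped.

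**Figure D5:**
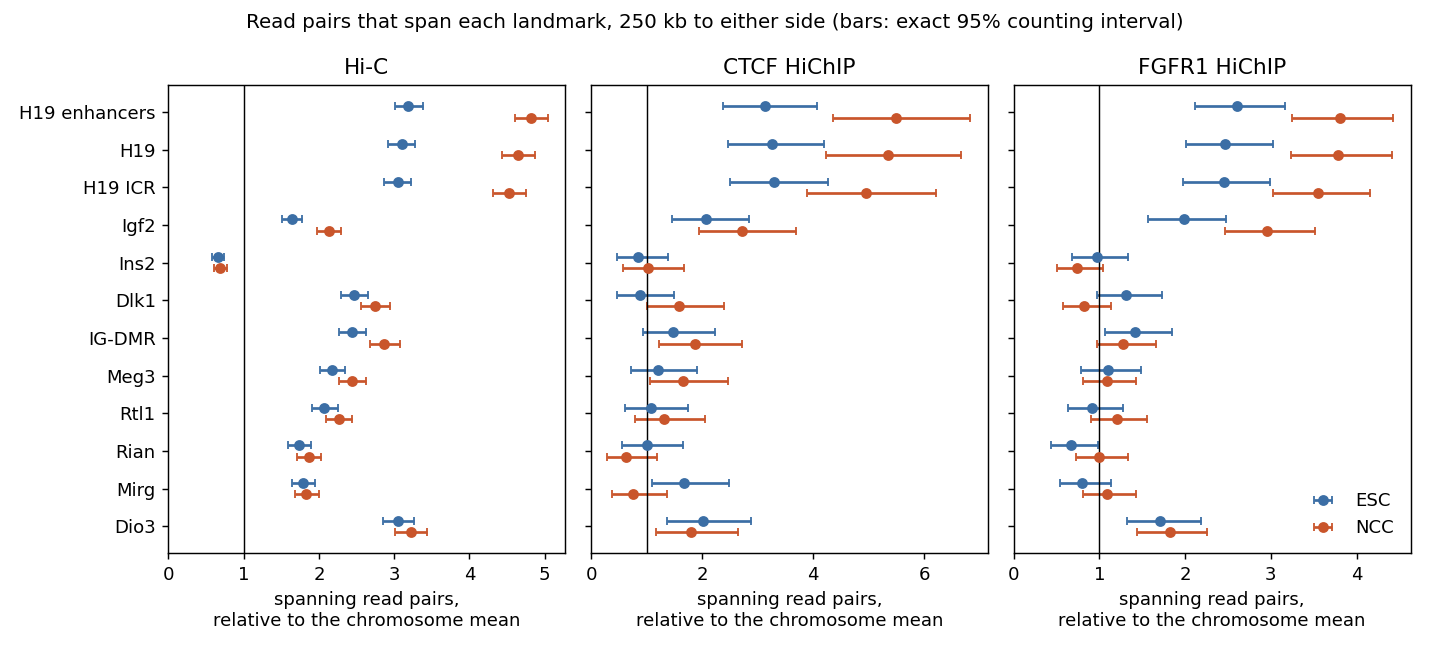
Read pairs that span each of the 12 landmarks with ends up to 250 kb to either side, divided by the mean of the chromosome (vertical line at 1), in ESC (blue) and NCC (orange) for the 3 assays; bars are exact 95% counting intervals. In Hi-C the H19 side of the Igf2-H19 domain lies above 3 in ESC and above 4.5 in NCC. The midpoint of the GENCODE Ins2 lies below 1 in both at this span, but above 1 with ends up to 500 kb away.

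Other imprinted genes and neighbours were listed for comparison with the members. Over all genes tested, 13.1% were called higher in NCC and 16.8% lower in Hi-C. The shares were 27.5% and 25.9% in CTCF HiChIP and 21.2% and 30.9% in FGFR1 HiChIP. Of 48 imprinted genes elsewhere, 9 were called higher in NCC Hi-C and 7 lower, with a median log2 ratio of 0.23 against -0.06 over all genes. In CTCF HiChIP 14 of the 36 tested were called higher and 4 lower, with a median of 0.31 against 0.03, and in FGFR1 HiChIP 7 of 43 higher and 13 lower, with a median of -0.18 against -0.16. Of the 10 neighbours of Igf2-H19, 1 was called higher in NCC Hi-C and 0 lower, with a median of 0.43. In CTCF HiChIP 3 of 9 were called higher and 3 lower, among them Nctc1, a noncoding RNA gene next to the H19 enhancers, at a log2 ratio of 1.86 and Mrpl23, a mitochondrial ribosomal protein gene, at 1.55. Of the 9 neighbours of Dlk1-Dio3, 0 were called in Hi-C, with a median of -0.05, and in CTCF HiChIP 0 of 8 were higher and 2 lower.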

How the data were processed

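Hi-C and HiChIP (antibodies against CTCF and FGFR1) were done in E14Tg2A ESC and NCC, with 2 biological replicates each. Per the study's methods, the authors aligned reads to mm10 with HiC-Pro, joined them to anchors with hichipper and merged the replicates without a filter on q. Duplicate reads were removed in that step. Each deposited score counts the read pairs that join 1 anchor to another. All anchors on chromosomes 7 and 12 start at a GATC site and are followed by one, as checked on GRCm38, and coordinates are given 1-based.

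Here, read pairs of different anchors up to 1 Mb apart were used on chromosomes 1 to 19 and X. Ends were counted in anchors overlapping each landmark, fixed from GENCODE M21: the gene with 2 kb upstream, the ICR at 2 to 4.5 kb upstream and the enhancers at 6 to 12 kb downstream of the H19 start, and the IG-DMR at 10 to 16 kb upstream of Meg3. Counts were scaled to all read pairs of a library. Ratios have exact 95% intervals (conditional binomial) and levels exact Poisson intervals. The intervals cover counting error only. The same ratios were computed for all annotated genes. Expected contacts are genome-wide means per pair of anchors in 10 distance classes per factor of 10, without regard to anchor length. Named genes are all members, the control regions, the 5 highest CTCF scores over 20 kb per domain and library, and partner genes on fixed lists. The members and lists were chosen with earlier results of these data known. Python 3.11.15, NumPy 2.4.6, pandas 2.3.3 and SciPy 1.17.1 were used, and the scripts were tested on simulated data. Alternatives changed the scaling, the assignment of anchors, the score and distance minimum, the landmark and the treatment of read pairs inside an anchor. The sequences of the other CTCF consensus sites are not reported here.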

Additional observations from a re-analysis of the deposited data

Results flagged for a closer look

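Between NCC and ESC, 2 landmarks moved in opposite directions in 2 assays, each past the counting interval. With 1 pooled library per cell type and assay, the difference between conditions was not tested over replicates. Igf2 was higher in NCC in Hi-C (593 and 979 ends) and lower in CTCF HiChIP (53 and 24 ends), so that its change in CTCF HiChIP was 0.324 (0.189 to 0.540) of that in Hi-C. The anchors over Igf2 measured 15.8 and 22.2 kb in Hi-C and 17.5 and 8.0 kb in CTCF HiChIP, and per kb of anchor Igf2 was higher in NCC in both assays, at 1.81 and 2.08 in Hi-C and 2.49 and 2.84 in CTCF HiChIP. The Hi-C ratio was 0.905 by anchor midpoint, and the CTCF ratio 1.24 within 5 kb of the start and 1.27 with the landmark widened by 10 kb. Mirg was lower in CTCF HiChIP (24 and 6 ends) and higher in FGFR1 HiChIP (30 and 63 ends), a ratio between the changes of 5.94 (2.09 to 19.7). Its anchors measured 7.1 and 2.0 kb in CTCF HiChIP and 5.8 and 10.5 kb in FGFR1 HiChIP, and per kb of anchor Mirg was at 2.79 and 2.78 in the former and 1.95 and 1.87 in the latter.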

How the results depend on the processing

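No paired analysis was possible because each table holds both replicates merged, and for the same reason no replicate could be left out. Of the values that answer a comparison, 99 stayed within 1.5 times the main count or within the counting interval of the main value over the alternatives, and 17 moved. In Hi-C, NCC over ESC, 1 called landmark became 2 at a score of at least 2, 2 with read pairs inside an anchor and 4 with landmarks widened by 10 kb. In CTCF HiChIP, 9 became 5 by anchor midpoint, 2 at a score of at least 2, 4 at 20 kb or more and 2 with ends spread over the anchor. In FGFR1 HiChIP, 6 became 3 in both of the last settings. Of summed contacts, the Hi-C log2 ratio of Igf2-H19 was -0.77 by anchor midpoint and 1.05 with widened landmarks, and that of Dlk1-Dio3 -0.31 within 5 kb of gene starts. CTCF over Hi-C in ESC at Dlk1-Dio3 was -1.06 by midpoint, -1.10 at a score of at least 2 and -1.03 widened, and in NCC at Igf2-H19 -1.13 at 20 kb or more and -1.35 widened. At Igf2-H19 in ESC no CTCF read pair was left at a score of at least 2. The causes were not tested.

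Of the single ratios called in the main setting, 17 of 47 lay on the other side of 1 in at least 1 alternative, in 20 cases in all, and of those not called 19 of 33 did, in 37 cases. For NCC over ESC the called ratios that crossed 1 were Igf2 in Hi-C (0.905, midpoint), in CTCF HiChIP Igf2 (1.24 within 5 kb of the start, 1.27 widened), Meg3 (0.988, score of at least 2), Rtl1 (1.09, 5 kb) and Rian (0.983, pairs inside an anchor), and in FGFR1 HiChIP Dlk1 (0.966, widened) and Mirg (0.919, 5 kb). For CTCF over Hi-C in ESC they were Igf2 (0.430) and Ins2 (0.806) at a score of at least 2 and the IG-DMR (1.15) and Dio3 (1.33) with ends spread. In NCC they were the ICR (0.777 at a score of at least 2, 0.452 widened), Igf2 (1.02, widened) and Dio3 (1.88 spread, 1.05 widened). For FGFR1 over Hi-C they were Dio3 with ends spread (1.05 in ESC, 1.11 in NCC) and Rtl1 by midpoint in NCC (1.01). The settings with ends spread, landmarks widened or each read pair counted once were chosen after seeing the data.

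Over all genes, 9564 of 17912 were called in CTCF HiChIP between NCC and ESC, 17151 of 27109 without the minimum of 20 ends and 5328 of 8343 at a score of at least 2. Scaling to read pairs within 1 Mb moved the median log2 ratio of all genes for CTCF over Hi-C in ESC from -0.48 to -0.29. The span of 100 or 500 kb in place of 250 kb moved 59 of 144 crossing values beyond their interval. Depth limits the HiChIP contacts between landmarks, most of which rest on 5 read pairs or fewer.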

Other observations

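Both windows also had read pairs with each other, across chromosomes. Each Hi-C and each CTCF HiChIP library had 1 read pair that joined the Igf2-H19 window to the Dlk1-Dio3 window, and the FGFR1 libraries had 0. If the inter-chromosomal read pairs of each window were spread in proportion to those of the other, 0.484 would be expected in ESC Hi-C, 0.759 in NCC Hi-C, 0.0194 in ESC CTCF HiChIP and 0.0288 in NCC CTCF HiChIP. The exact 95% interval of a count of 1 runs from 0.0253 to 5.57. Its lower end lies above the expected number in ESC CTCF HiChIP and below it in the other 3 libraries, and each value rests on a single read pair, for counting error only.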
